A study of Neurospora crassa with 18 samples.

Results

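Wild-type *Neurospora crassa*, a filamentous fungus grown here as mycelium, was compared after 12 h and after 4 h without phosphate. The comparison used 9 of the 18 libraries of the series, all 3 from wild type starved for 12 h (Experiment 3) and the 3 wild-type libraries starved for 4 h in each of Experiment 1 and Experiment 2. The 12 h libraries came from strain FGSC 4200 (*mat a*) and the 4 h libraries from strain FGSC 2489 (*mat A*). Every culture was started from conidia and kept under constant light at 25°C for 24 h in Vogel's minimal medium with sucrose, then washed and moved to Fries minimal medium with 0 mM phosphate, so all 9 libraries share starvation and none is an unstarved control. The 12 h libraries were set against each 4 h experiment separately, and a difference was taken as found only where it appeared in both. Time could not be told apart from experiment, mating type, strain, sequencing instrument and read layout, because Experiment 1 and Experiment 2 were sequenced with single-end reads at separate centres and Experiment 3 with longer paired-end reads. The study itself did not compare these libraries with each other. Mean levels in the other 9 libraries are given only as a description: wild type (*mat A*) at 7 mM phosphate for 4 h in Experiment 1, Δ*nuc-1* (*mat a*) starved for 4 h in Experiment 2, and Δ*nuc-3* (*mat a*) starved for 12 h in Experiment 3.

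Fungi sense phosphate through a kinase module. In *N. crassa*, the cyclin-dependent kinase inhibitor NUC-2 holds back the cyclin and kinase pair PREG and MDK-1 when phosphate runs out, and the transcription factor NUC-1 then activates secreted phosphatases, nucleases and phosphate transporters. NUC-3 is a transcription factor that acts on the same response, and its deletion strain was the other strain of Experiment 3.

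Values are rescaled TPM, the deposited TPM (a length-corrected share of all transcripts) summed per gene and divided by a factor for each library, chosen so that the median gene is equal across libraries. Calling a gene required 3 things: an adjusted p under 0.05 in limma, group means of rescaled TPM that were 4-fold or more apart, and 10 or more deposited TPM on average in either group. Log2 fold changes are on the log2(rescaled TPM + 1) scale and understate the change of low genes. Of 8509 genes tested, 138 were called higher (1.62%) and 162 lower (1.90%) at 12 h than at 4 h in Experiment 1. Against Experiment 2, 324 genes were called higher (3.81%) and 138 lower (1.62%). The same rule applied to the 4 h groups alone, which share strain, medium and time, called 198 genes higher (2.33%) and 278 lower (3.27%) in Experiment 2 than in Experiment 1. In either direction, 476 genes (5.59%) were called between the 4 h experiments, against 300 (3.53%) and 462 (5.43%) between 12 h and each of them. With TPM as deposited, 36.3% of the calls against Experiment 1 were higher in place of 46.0%, and between the 4 h experiments 19.3% in place of 41.6%.

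Both comparisons called 87 genes higher at 12 h (1.02% of genes tested) and 57 lower (0.670%), together 144 (1.69%). These comparisons share the 12 h libraries, so the count follows from the rule and is not a test. Of the 87 genes, 12 were also called between the 4 h experiments, and of the 57 genes, 3 were, beside 476 of all 8509 genes tested (5.59%). The median log2 fold change over all genes tested was -0.01 against Experiment 1 and -0.02 against Experiment 2. The requirement of 4-fold was strict: by adjusted p alone, 983 genes were higher at 12 h in both comparisons (11.6%) and 1169 were lower in both (13.7%).

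**Figure D1:**
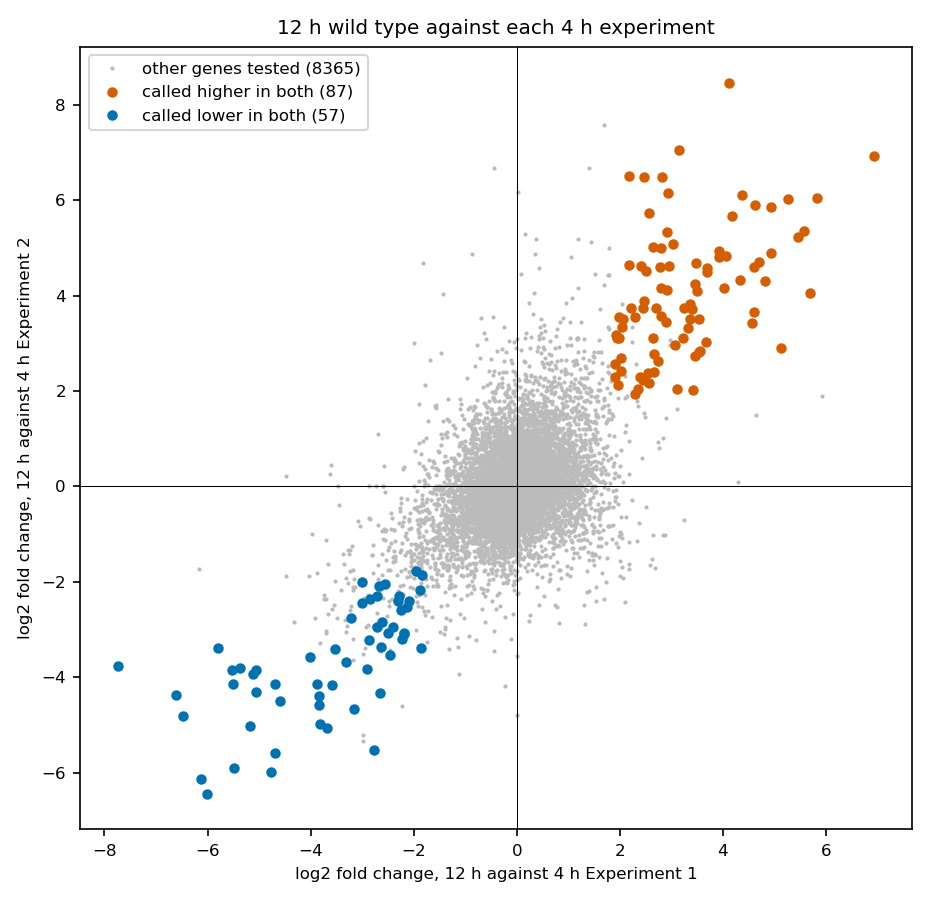
Log2 fold change of 8509 genes at 12 h against 4 h in Experiment 1 (x axis) and in Experiment 2 (y axis), each point 1 gene. The 87 genes called higher in both (orange) and the 57 called lower in both (blue) sit in the upper right and lower left, and most other genes (grey) lie near 0.

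The libraries carried the mating types of their labels. *mat A-1*, a gene of the *mat A* locus, was listed at 0 in all 3 libraries at 12 h, at 17.5, 9.39 and 10.3 in Experiment 1 and at 7.89, 1.83 and 4.25 in Experiment 2. The *mat a* pheromone precursor gene *mfa-1* had the opposite pattern, with 64.9, 212 and 84.8 at 12 h, 10.8, 13.7 and 10.9 in Experiment 1 and 13.3, 9.44 and 16.1 in Experiment 2. It was called higher in both (10.2-fold and 9.31-fold), and its mean in the Δ*nuc-1* strain, which is also *mat a* but was starved for 4 h, was 167. In Δ*nuc-3*, *mat a* and starved for 12 h, it measured 25.6, 31.7 and 46.6 (mean 34.6), below every 12 h wild-type library and above every 4 h one. The *mat A* pheromone precursor gene *ccg-4* was lower in both (adjusted p = 4.3e-05 and 0.012, limma) without reaching 10 TPM.

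The Δ*nuc-1* libraries are also *mat a*, starved for 4 h. Of the 87 higher genes, 78 had a 12 h mean at least 4 times that of the Δ*nuc-1* libraries, and 53 of the 57 lower genes had a 12 h mean at most 1/4 of theirs. A gene at or near 0 at 12 h meets this 1/4 rule even where its Δ*nuc-1* mean is low. Among the 57, 7 were listed at 0 in all 12 h libraries and 25 had a 12 h mean below 1. NCU09968, low in both groups, is counted in the 53. The higher genes with a 12 h mean below 2 times the Δ*nuc-1* mean were *mfa-1*, *rbg-40*, NCU02545 and NCU09382. The lower genes with a 12 h mean above 1/2 of the Δ*nuc-1* mean were NCU05977 and the phosphate transporter gene *pho-4*. The study reports lower levels of this transporter gene, and higher levels of many ribosome biogenesis genes, in the deletion strain than in starved wild type. In the lists used here, *rbg-40* is a ribosome biogenesis gene. The Δ*nuc-1* libraries differ from wild type at 4 h by the deletion and by mating type, and the part of each was not tested. In the other strain of Experiment 3, Δ*nuc-3* at 12 h, 77 of the 87 higher genes and 44 of the 57 lower genes were also past 4-fold of both 4 h wild-type groups. The counts for both deletion strains reuse wild-type means that had selected these genes, so they partly follow from the selection and are not a test. Shares over all genes tested were not computed. Time and experiment cannot be told apart here, since both strains of Experiment 3 were harvested at 12 h.

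Most genes of the phosphate response were still above their 7 mM level at 12 h. Of 63 genes in 8 lists of phosphate regulators, phosphatases, transporters and metabolic enzymes of starvation, 55 had a 12 h mean at least 2 times the 7 mM mean and 40 a mean at least 4 times it. The 7 mM libraries were *mat A* at 4 h in Experiment 1, so time, experiment, mating type and sequencing differ too. The shares of all genes tested past these ratios were not computed. None of the 63 was called higher in both comparisons and 3 were called lower, beside 1.02% and 0.670% of all genes tested. By adjusted p alone, 8 were higher in both and 8 lower in both, which is 12.7% each and near the 11.6% and 13.7% of all genes tested. Many of these genes were listed by the study for their response in Experiment 1, and those values are not independent of the list.

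The level at which the response stood depended on the 4 h experiment it was compared with. Against Experiment 1, 29 of the 63 genes were lower by adjusted p and 9 higher (28.2% and 27% of all genes tested), with a median log2 fold change of -0.35. Against Experiment 2, 37 were higher and 10 lower (29.7% and 31.1% of all genes tested), with a median of 0.90. The 4 h experiments differed from each other in the matching way, since 51 of the 63 genes had the higher mean in Experiment 1 and 46 were lower and 6 higher in Experiment 2 by adjusted p (33.3% and 31.2% of all genes tested). Many of the 63 were listed because they were high in Experiment 1, so this direction partly follows from the choice of genes. For 26 of the 63 genes the 12 h mean lay below Experiment 1 and above Experiment 2.

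*pho-2*, the repressible alkaline phosphatase gene, showed no detectable difference. It measured 4336, 2409 and 3311 at 12 h, 4555, 3353 and 3648 in Experiment 1, and 4211, 3092 and 3168 in Experiment 2. The ranges overlapped, with log2 fold changes of -0.23 ± 0.26 (SE, adjusted p = 0.47) and -0.08 ± 0.26 (adjusted p = 0.79). Every starved library was far above the mean of 10.5 at 7 mM. The acid phosphatase gene *pho-3* overlapped Experiment 1 (adjusted p = 0.94) and was 5.16-fold higher than Experiment 2 (log2 fold change 2.39 ± 0.38, adjusted p = 4.7e-04). Its libraries read 2994, 1226 and 2234 at 12 h, 2276, 1939 and 2014 in Experiment 1 and 659, 253 and 339 in Experiment 2. The extracellular nuclease gene *grn* lay between the 4 h groups without overlap, at 1677, 1354 and 1769 against 3172, 2484 and 2952 (1.79-fold lower) and against 646, 397 and 546 (3.02-fold higher). *gdp-1*, a glycerophosphodiester phosphodiesterase gene that releases phosphate from lipid head groups, was 2.33-fold lower than Experiment 1 (adjusted p = 0.0053) and not detectably different from Experiment 2 (adjusted p = 0.11). For the transporter genes *pho-4* and *pho-5* as for *pho-2*, *gdp-1* and *pho-3*, replicate 2 was the lowest of the 12 h libraries.

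Among the phosphate transporters, *pho-4*, a high-affinity symporter gene, stood out as the member called lower in both. It measured 264, 157 and 199 at 12 h, 1277, 715 and 982 in Experiment 1 and 1228, 1109 and 1333 in Experiment 2. No 12 h library reached the lowest 4 h library, and the mean was 4.80-fold lower (log2 fold change -2.25 ± 0.24, adjusted p = 6.7e-05) and 5.92-fold lower (-2.59 ± 0.24, adjusted p = 1.7e-05). It was still far above its mean at 7 mM (4.88), and its mean in Δ*nuc-3* at 12 h was 348. The annotated span of *pho-4* shares 586 bases with NCU12035, so reads of that stretch may belong to either. NCU09767, a gene with homology to phosphate transporters, followed the same direction, with 61.5, 44.7 and 61.5 at 12 h, 5.17-fold below Experiment 1 (adjusted p = 8.6e-06) and 3.01-fold below Experiment 2 (adjusted p = 4.6e-05).

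The other transporters were not lower in both comparisons. *pho-5*, the second high-affinity phosphate transporter gene, measured 3872, 2172 and 3144 at 12 h, which overlapped Experiment 1 (2972 to 3642) and lay above Experiment 2 (1624 to 1841, adjusted p = 0.013). *pho-7*, an MFS phosphate transporter gene, was at 66.5, 50.9 and 60 at 12 h, close to Experiment 1 (60.8 to 87.5, adjusted p = 0.20) and 4.87-fold below Experiment 2 (214 to 389, adjusted p = 2.4e-05). Its mean in Δ*nuc-3* was 1372.

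The regulators themselves moved by small amounts. *nuc-2*, the kinase inhibitor gene, measured 100.1, 89.4 and 99.2 at 12 h, below every 4 h library (136 to 160.1 in Experiment 1, 184 to 239 in Experiment 2), and was 1.51-fold lower (adjusted p = 0.0032) and 2.26-fold lower (adjusted p = 4.0e-05). *nuc-1*, the activator gene, measured 49.4, 51.0 and 47.6 at 12 h, above every 4 h library (22.4 to 26.5 and 30.4 to 44.9), with ratios of 2.00 (adjusted p = 3.6e-04) and 1.29 (adjusted p = 0.037). The second of these lost its significance in separate fits of 6 libraries (adjusted p = 0.061) and without any one of 6 libraries, among them every 12 h library (adjusted p = 0.056 to 0.092). *nuc-3* ranged from 113 to 215 at 12 h, overlapping both 4 h groups, and *preg* and *mdk-1* did not pass against Experiment 2 (adjusted p = 0.18 and 0.33).

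In the other lists of the response, *vtc-1*, a subunit gene of the vacuolar polyphosphate polymerase, was lower in both (1.55-fold and 3.02-fold), as was the predicted phospholipid transporter gene *mfs-10* (2.78-fold and 1.80-fold). NCU03950, a homolog of vacuolar polyphosphate polymerases, was higher in both, at 51.0, 71.4 and 59.2 against 22.0 to 26.3 and 25.3 to 35.7, and the nucleotide metabolism gene NCU05005 measured 155, 175 and 153 against 54.9 to 87.1 in Experiment 1 and 2.59 to 4.87 in Experiment 2. *cea-6* and *inl-13* were also higher in both, but against Experiment 1 neither passed with TPM as deposited (adjusted p = 0.10 and 0.052), and 1541 of the 1551 annotated bases of *inl-13* overlap NCU04068.

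**Figure D2:**
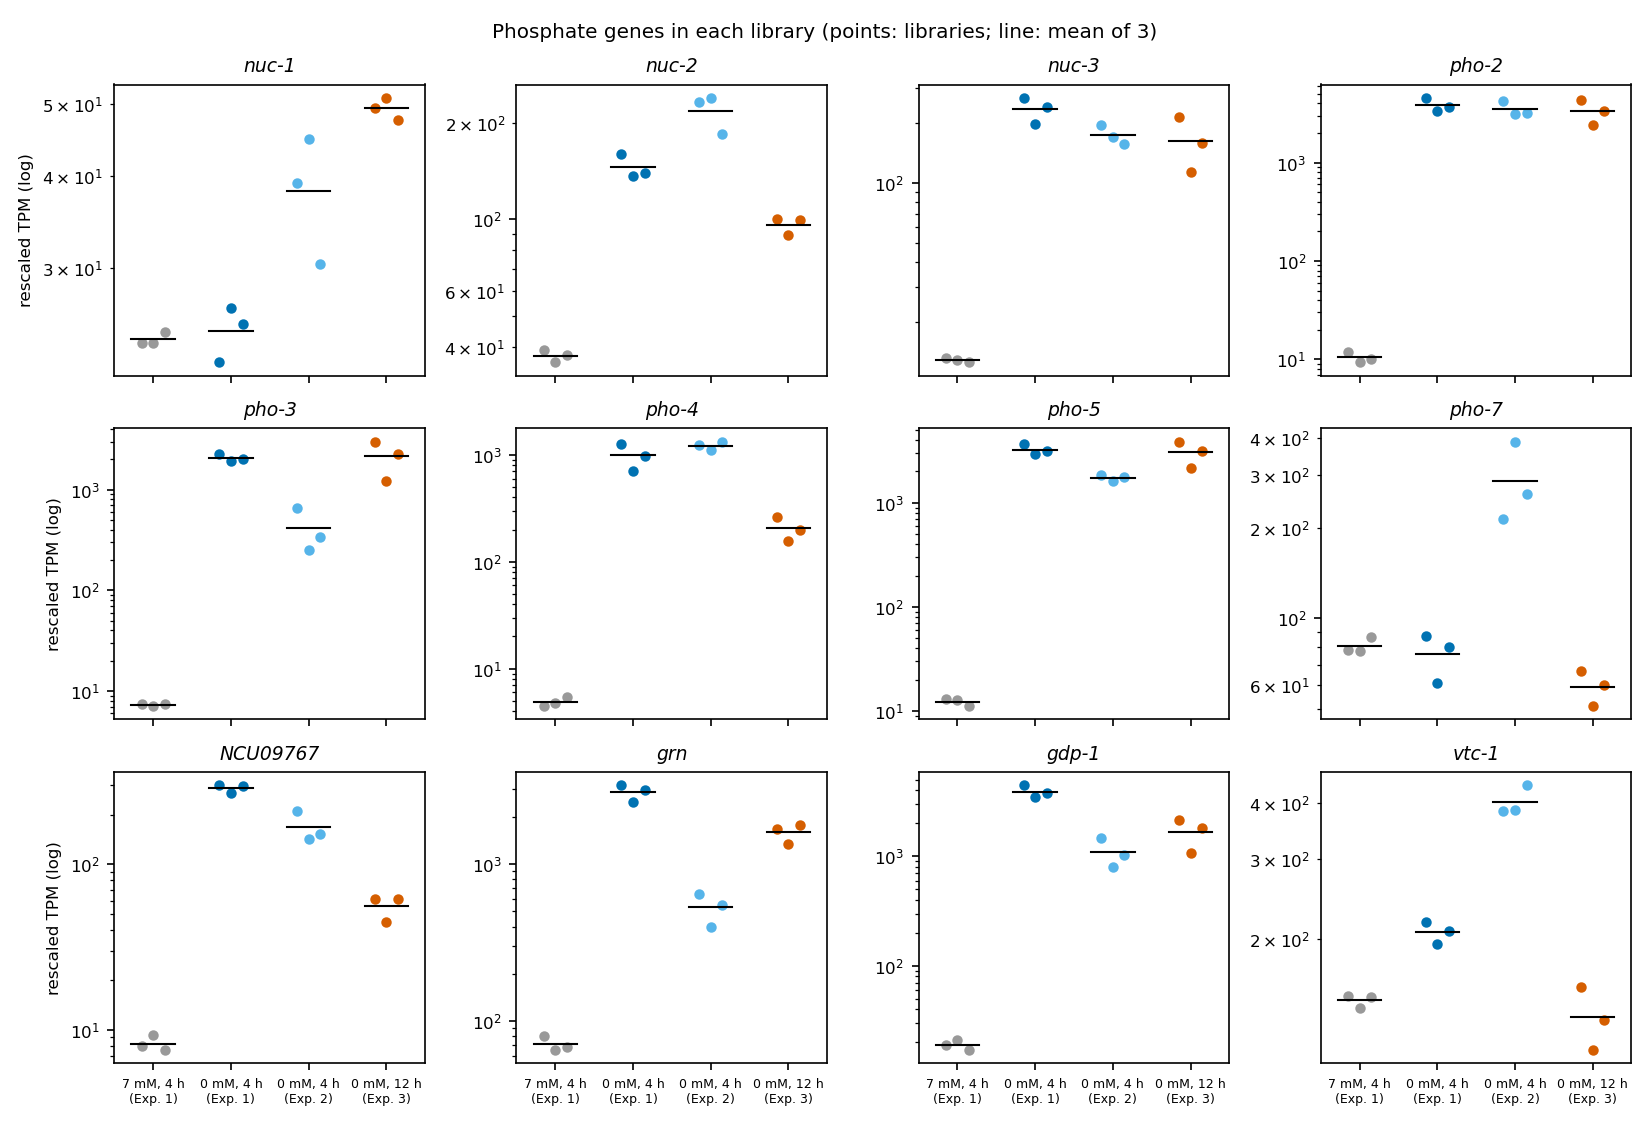
Rescaled TPM (log axis, 1 panel a gene) of 12 phosphate genes in wild type at 7 mM for 4 h (grey), at 0 mM for 4 h in Experiment 1 (dark blue) and Experiment 2 (light blue) and at 0 mM for 12 h (orange); points are libraries and lines are means of 3. *pho-4*, NCU09767 and *nuc-2* are below both 4 h groups at 12 h, *pho-2* overlaps both, and *grn* lies between them.

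The study listed 26 genes as bound and repressed by NUC-3, using the 12 h wild-type libraries analysed here, so their direction is not independent evidence. Of these, 5 were higher in both and 5 lower in both by adjusted p (11.6% and 13.7% of all genes tested), and the median log2 fold changes were -0.05 and -0.03, near those of all genes tested. The 2 members called lower in both lie near each other on chromosome III. *gt2-4*, a homolog of nucleotide-sugar transferase genes, measured 16.2, 24.5 and 15.9 at 12 h against 77.6 to 216 and 133 to 264 (6.98-fold and 11-fold lower). *gld-2*, a UDP-glucose dehydrogenase gene, measured 13.9, 27.2 and 14.9 against 57.6 to 168 and 58.7 to 158 (5.44-fold and 5.71-fold lower), and its call was lost when replicate 1 of Experiment 1 was left out. Their means in Δ*nuc-3* at 12 h were 112 and 113. For *gld-2* this was inside the range of each 4 h experiment. For *gt2-4* it was inside that of Experiment 1 and below every library of Experiment 2. Among 14 genes listed as bound and repressed by NUC-1, chosen by the study on the libraries of Experiment 2, 9 were higher and 2 lower than in Experiment 1, and 2 were higher and 4 lower than in Experiment 2. The shares over all genes tested were 27% higher and 28.2% lower against Experiment 1, and 29.7% and 31.1% against Experiment 2.

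The cytosolic ribosomal proteins gave opposite answers to the same question. Of 75 such genes tested, 65 were higher at 12 h than in Experiment 1 and 52 were lower than in Experiment 2 by adjusted p (27% and 31.1% of all genes tested), with median log2 fold changes of 1.45 and -1.01. Their summed level was 58631 to 77363 at 12 h, 17880 to 31239 in Experiment 1 and 126653 to 217695 in Experiment 2, with no overlap among the 3 groups. At 7 mM the sum was 270675 to 289674, above every starved wild-type library. These opposite signs held with TPM as deposited (1.25 and -0.81) and with upper-quartile scaling (1.46 and -0.93). Of 10 heat shock proteins, 8 were higher than in Experiment 1 and 5 lower than in Experiment 2, against the same 27% and 31.1% of all genes tested. A single gene of the list, NCU06749 (annotated as L3), was called higher in both, at 51.1, 48.3 and 49.7 against 2.50 to 5.81 and 3.61 to 4.54. It was far below the usual member, whose median level was 827 at 12 h, 269 in Experiment 1 and 1849 in Experiment 2. Of its 1708 annotated bases, 1492 overlap NCU06748.

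Gene span moved with these differences too. Genes tested were put in 4 equal groups by span. In the shortest group (87 to 1614 bases) the median log2 fold change was -0.27 against Experiment 1 and 0.07 against Experiment 2, and in the longest group (3195 to 34205 bases) it was 0.23 and -0.12. Between the 4 h experiments it went from -0.47 to 0.36. Read layout differs between the experiments, and its part in these values was not tested. Of the common reference genes, *gpd-1* was 3.38-fold higher than in Experiment 1, and *act* (1.98-fold) and *Bml* (3.12-fold) were lower than in Experiment 2.

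**Figure D3:**
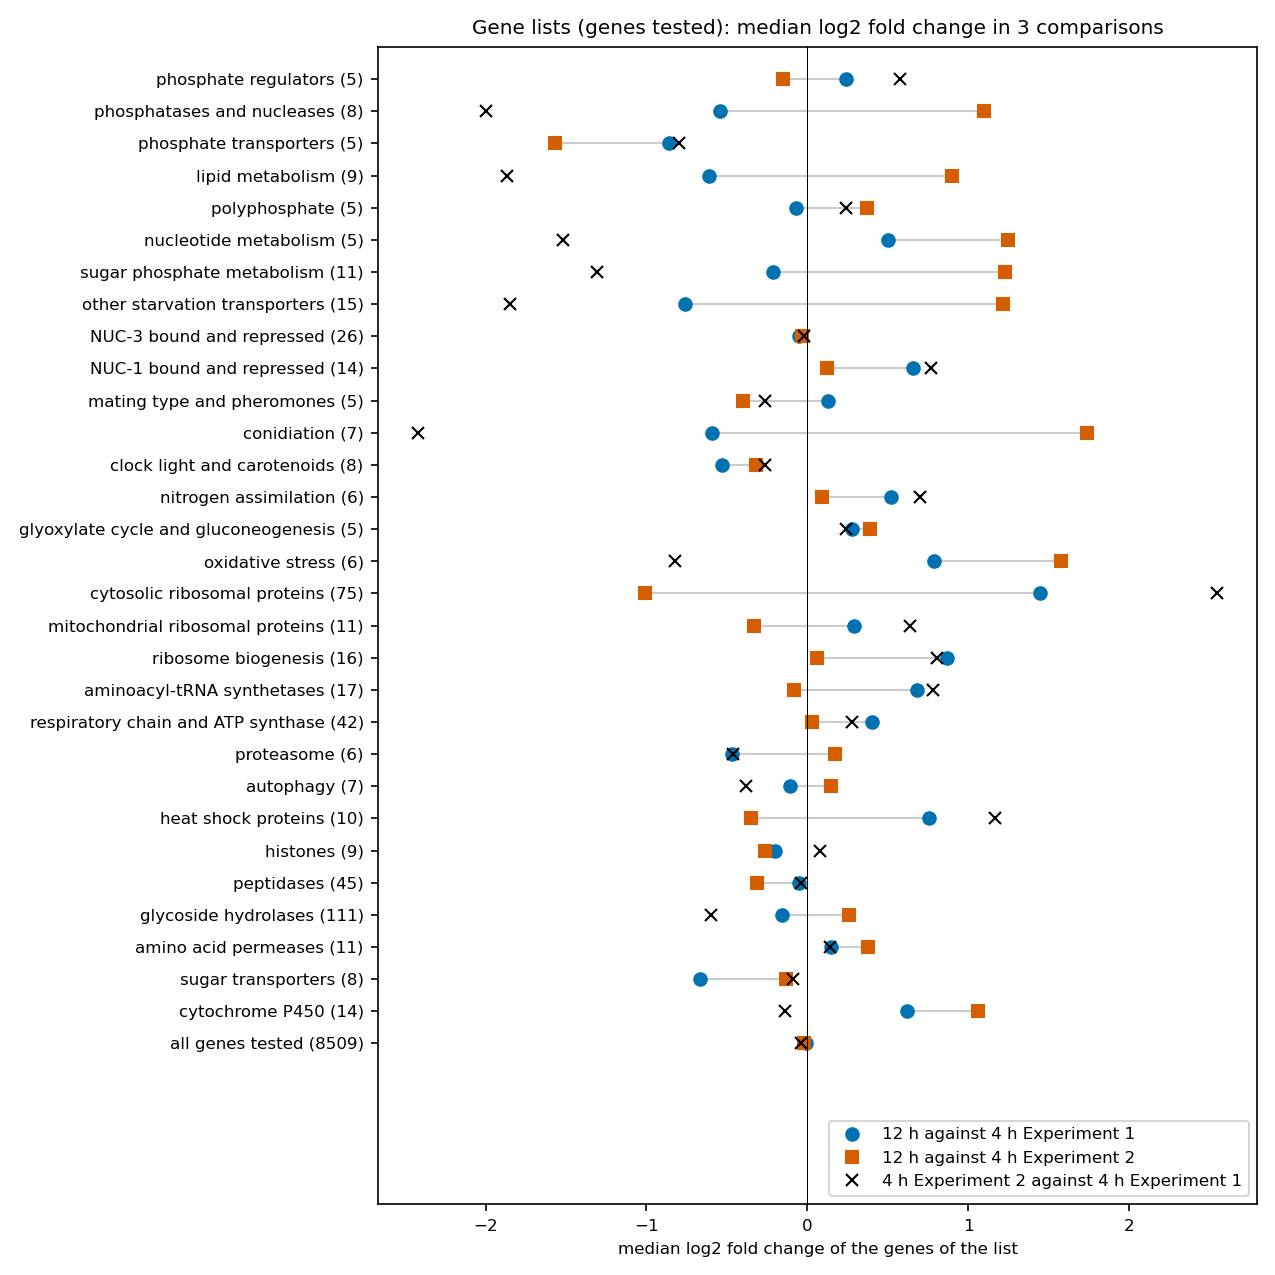
Median log2 fold change (x axis) of the genes of each list (y axis, number of genes tested in brackets) at 12 h against Experiment 1 (circles), at 12 h against Experiment 2 (squares) and in Experiment 2 against Experiment 1 at 4 h (crosses). The cytosolic ribosomal proteins stand at 1.45, -1.01 and 2.55, and oxidative stress genes at 0.79, 1.58 and -0.82.

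Of 6 oxidative stress genes, 4 were higher in both by adjusted p and 1 was lower in both, beside 11.6% and 13.7% of all genes tested. *cat-1*, a catalase gene abundant in conidia, measured 266, 665 and 467 at 12 h against 112 to 135 (3.68-fold, adjusted p = 0.0010) and 35.0 to 58.8 (10.7-fold, adjusted p = 1.7e-05). *cat-2*, a catalase-peroxidase gene, measured 660.2, 489 and 636 against 266 to 308 (2.12-fold) and 25.4 to 65.9 (14.6-fold). Catalase gene *cat-3* (1.71-fold and 2.28-fold) and the mitochondrial superoxide dismutase gene *sod-2* (1.71-fold and 4.07-fold) were the other members higher in both. *aod-1*, which encodes the alternative oxidase of the mitochondrial electron transport chain, was the member lower in both, at 25.2, 25.5 and 24.6 against 45.9 to 59.2 (2.18-fold lower) and 78.5 to 109 (3.73-fold lower).

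Among 8 clock and light genes, *frq*, the central gene of the circadian oscillator, was lower in both at nearly the same ratio. It measured 28.4, 35.0 and 30.1 at 12 h, 75.5, 82.3 and 75.2 in Experiment 1 and 81.5, 82.7 and 63.7 in Experiment 2 (2.49-fold and 2.44-fold lower, adjusted p = 4.2e-05 and 2.7e-05). The 12 h and 4 h ranges did not overlap, its mean at 7 mM was 99.6, and its mean in Δ*nuc-3* at 12 h was 26.9. The carotenoid gene *al-3* and the photoreceptor gene *vvd* were lower in both by smaller amounts. Against Experiment 2 neither passed with TPM as deposited (adjusted p = 0.27 and 0.084, limma). Against Experiment 1, *vvd* did not pass when replicate 2 or replicate 3 of Experiment 1 or of the 12 h group was left out (adjusted p = 0.067 to 0.095). *am*, the gene of the glutamate dehydrogenase that assimilates ammonium, measured 302, 294 and 278 at 12 h, 2.02-fold below Experiment 1 and 6.88-fold below Experiment 2.

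Genes of conidiation, the making of asexual spores, differed in size and sign. By adjusted p, 1 of 7 was higher and 5 were lower than in Experiment 1 (27% and 28.2% of all genes tested). Against Experiment 2, 4 were higher and 1 lower (29.7% and 31.1% of all genes tested). The member lower in both, *con-13*, did not pass against Experiment 2 without replicate 1 of Experiment 2 or any 1 library at 12 h (adjusted p = 0.052 to 0.092, limma). *con-8* was the member of 7 called higher in both, with 472, 978 and 626 at 12 h against 54.6, 126 and 96.2 in Experiment 1 (7.49-fold) and 11.7, 13.4 and 23.3 in Experiment 2 (42.9-fold). The hydrophobin gene *eas* overlapped Experiment 1 (3576 to 6875 against 4143 to 5378) and lay 74.4-fold above Experiment 2. *con-6* and *con-10* lay between the 4 h groups, 3.98-fold and 3.46-fold below Experiment 1 and 4.35-fold and 4.07-fold above Experiment 2. The summed level of the 7 genes was 4319.6 to 7967 at 12 h, 4572 to 5782 in Experiment 1, 122 to 175 in Experiment 2 and 69.8 to 91.3 at 7 mM. Most of the sum at 12 h and in Experiment 1 came from *eas*, so it does not describe the other members. In mycelium, more conidiating cells and more RNA per cell cannot be told apart, and the part of these cells in the other differences was not tested.

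Several abundant genes were called higher in both. These and the lower genes further below, from *pmg* to *col-20*, were chosen after their values were seen. They were taken as abundant or annotated genes called in both whose annotated span overlaps no other gene. The clock-controlled gene *ccg-13* reached 4641, 6496 and 4673 at 12 h against 205, 1521 and 655 in Experiment 1 (6.64-fold) and 34.1, 43.4 and 38.4 in Experiment 2 (136-fold), and NCU07232, annotated as an hsp30-like protein, measured 1310.4, 3332 and 2306 against 78.5 to 241 and 3.09 to 6.59. Both of these and *con-8* were also called between the 4 h experiments, lower in Experiment 2. NCU08739, annotated as endothiapepsin, an aspartic protease, measured 139, 920.4 and 369, with both 4 h groups between 24.9 and 42.1. NCU07129, an amino acid permease gene, was at 144, 165 and 164 against 17.7 to 38.7 and 9.98 to 11.9.

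Glycoside hydrolases cut polysaccharides such as those of cell walls. Of 111 annotated genes tested, 16 were higher in both and 17 lower in both by adjusted p (14.4% and 15.3%), near the 11.6% and 13.7% of all genes tested, and 2 were called higher in both and none lower. The called genes were NCU06861 of family 43, at 36.5, 41.5 and 50.1 against 3.58 to 7.32 and 1.05 to 1.82, and *gh18-8* of the chitinase family 18, at 168, 60 and 126 against 24.5 to 28.4 and 6.47 to 11.3. The call of *gh18-8* was lost against Experiment 1 with TPM as deposited (log2 fold change 1.79), with a threshold on the log2 fold change (1.98) and without replicate 1 at 12 h (1.66). Outside that list, NCU09775 and NCU09170, chosen after their values were seen and both annotated as α-N-arabinofuranosidases, which remove arabinose side chains, were called higher, with means of 62.4 and 67.0 at 12 h. Of 14 cytochrome P450 genes tested, 6 were higher in both and none was lower in both by adjusted p, beside 11.6% and 13.7% of all genes tested. NCU06137 was called higher in both, at 30.8, 104 and 71.1 against 3.41 to 8.62 and 9.92 to 21.2. Its call against Experiment 2 was lost without replicate 2 of Experiment 2 (log2 fold change 1.77, adjusted p = 0.018, limma) and without replicate 2 at 12 h (1.64, adjusted p = 0.013). It is annotated as P450 55A2, a family known from *Fusarium oxysporum* as nitric oxide reductases.

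Several transport and nitrogen genes were called lower in both. *pmg*, the general amino acid permease gene, measured 4.77, 21.3 and 9.21 at 12 h against 222, 121 and 140.2 in Experiment 1 (13.7-fold) and 221, 235 and 228 in Experiment 2 (19.4-fold), and its means at 7 mM (120.2) and in Δ*nuc-1* (197) were at the 4 h level. NCU02361, a formamidase gene, was at 18.1, 15.3 and 19.1 against 158 to 171 and 372 to 716. *ena-1*, a P-type ATPase gene of sodium export, was at 19.7, 29.8 and 21.0 against 142 to 232 (7.64-fold) and 189 to 257 (9.60-fold), and its mean in Δ*nuc-3* at 12 h was 97.6. The monosaccharide transporter gene NCU04537 (10.9-fold and 11.1-fold) and *col-20* (5.73-fold and 8.23-fold), named for a colonial growth form, were lower too.

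**Figure D4:**
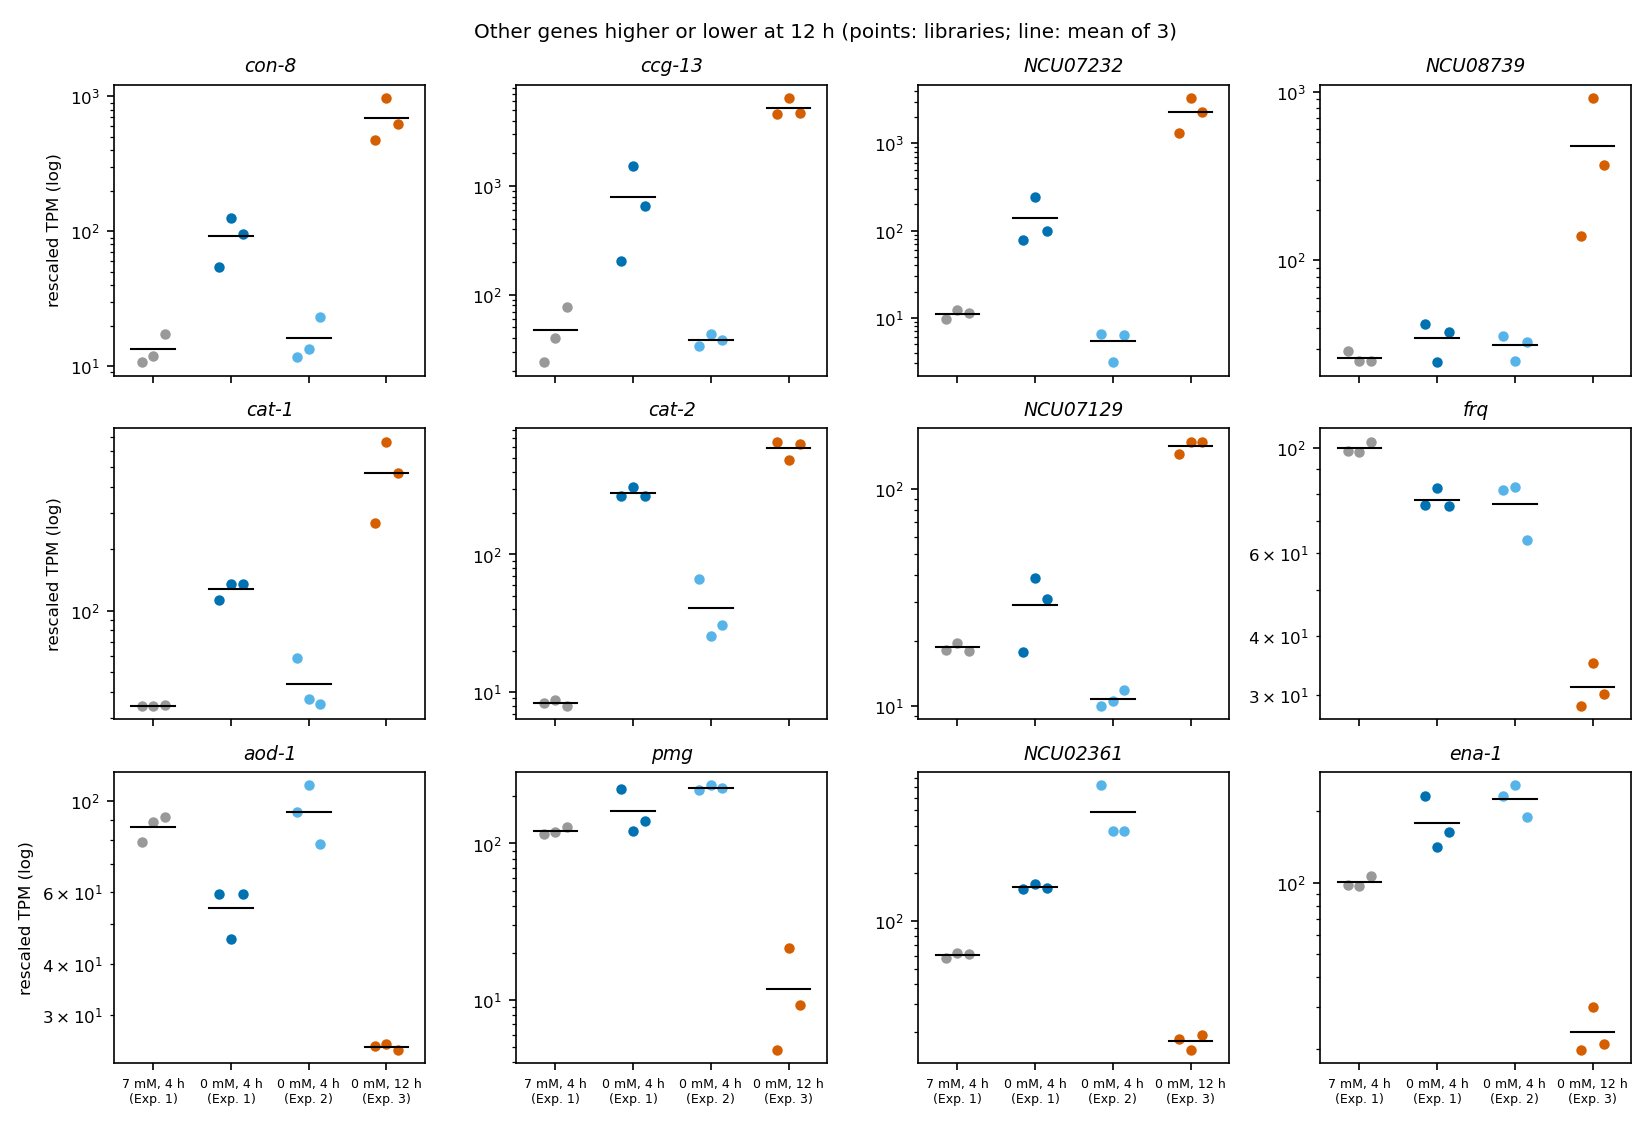
Rescaled TPM (log axis, 1 panel a gene) of 12 other genes, with groups, points and lines as in the plot of phosphate genes. *con-8*, *ccg-13*, NCU07232, NCU08739, *cat-1*, *cat-2* and NCU07129 lie above both 4 h groups in every 12 h library, and *frq*, *aod-1*, *pmg*, NCU02361 and *ena-1* below them.

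Many of the genes called higher share their span with another gene. Of the 87 higher genes, 44 (50.6%) overlap another annotated gene, against 26.1% of all genes tested, and 38 (43.7%) share at least 1/2 of their span with it, against 3.37%. Among the 57 lower genes 15.8% overlap another gene. Of the genes called between the 4 h experiments, 33.3% of those higher and 31.7% of those lower in Experiment 2 overlap another gene, and 5.56% and 7.55% share at least 1/2 of their span. The sources used here do not say whether reads were assigned by strand, so the levels of overlapping genes are uncertain. For instance, *pod-1* was listed at 0 in all 6 libraries at 4 h and at 17.6, 30.1 and 23.7 at 12 h, and its whole span of 3311 bases lies within the overlap with NCU07954, whose means were 38.1, 53.6 and 52.2 in Experiment 1, Experiment 2 and at 12 h. NCU03598 was likewise listed at 0 in all 6 libraries and at 27.5, 23.9 and 24.1 at 12 h inside NCU03597. NCU01297, which shares 2123 of 2281 bases with NCU01296, was at 109, 126 and 139 at 12 h and at 0.0672 or less in every 4 h library.

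The overlapping genes tended to be low. Their median 12 h mean was 28.3, against 68.5 for the higher genes with no overlap, and the overlapped partner had the higher 12 h mean in 28 of 44 cases. The partners' median log2 fold changes were -0.24 and -0.48. Without overlapping genes, 43 genes remained higher and 48 lower, and leaving out genes with a span under 1000 bases as well gave 36 and 34.

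Genes listed at or near 0 at 12 h made up much of the lower group. Of the 57 lower genes, 7 were listed at 0 in all 3 libraries at 12 h and 25 had a mean below 1, of which 12 have a span under 1000 bases. Of all lower genes 29.8% are that short, against 7.31% of all genes tested. Between the 4 h experiments, 21.9% of the genes called lower and 7.58% of those called higher in Experiment 2 are that short. NCU01946, of 391 bases, was listed at 0 in every 12 h library, at 244, 208 and 187 in Experiment 1 and at 15.9, 9.86 and 12.6 in Experiment 2, and its call was lost without replicate 1 of Experiment 2 (log2 fold change -3.61, adjusted p = 1.2e-06). Longer genes were also near 0. NCU04572 (1161 bases) was at 0.0542, 0.0550 and 0.228 at 12 h against 63.5 to 80.2 and 86.2 to 99.5, NCU10603 (1268 bases) at 0.145, 0.294 and 0.101 against 72.1 to 93.4 and 69.9 to 90.7, and both were near 0 in Δ*nuc-3* and above 100 in Δ*nuc-1*. NCU09968 was listed at 0 in every 12 h library and at 40.4 to 73.4 at 4 h in wild type, and its means were 56.6 at 7 mM, 0.342 in Δ*nuc-1* and 0 in Δ*nuc-3*, so it was low in each *mat a* strain. Its span shares 1364 bases with NCU09969.

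**Figure D5:**
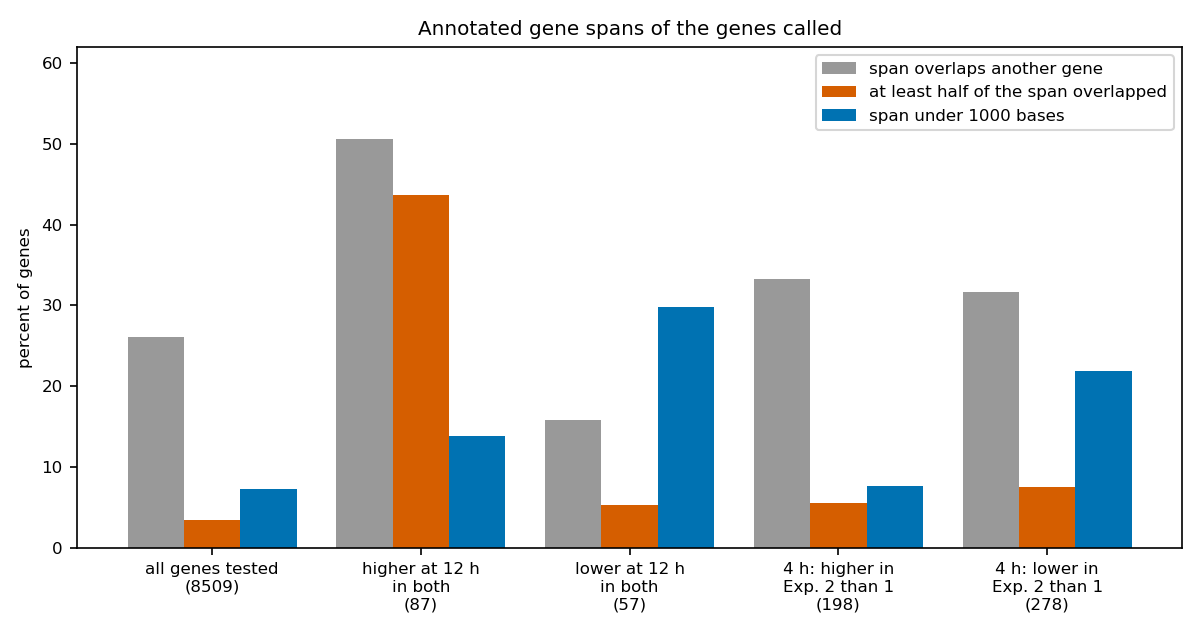
Percent of genes (y axis) whose annotated span overlaps another gene (grey), shares at least 1/2 of its length with one (orange) or is under 1000 bases (blue), for all genes tested, the genes called higher or lower at 12 h in both comparisons, and the genes called between the 4 h experiments (number of genes in brackets). Among the genes higher at 12 h, 43.7% share at least 1/2 of their span, against 3.37% of all genes tested.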

How the data were processed

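Groups followed the deposited labels, which give biological triplicates. The authors quantified poly(A) libraries with Salmon version 1.4.0 against transcripts of OR74A genome version 12 and deposited TPM values, 10697 transcript rows for 9774 genes. TPM hold no read depth, so depth is unknown, and a value listed at 0 sets no limit. The authors' counts and DESeq2 results were not used here, and 0 columns were left unmapped. Transcripts were summed per gene (several in 8.4% of genes), the 9 libraries were scaled by median of ratios (factors 0.77 to 1.21), and the other 9 were scaled to the same reference. Genes that averaged 1 TPM or more in any group were fitted in 1 model of 3 groups with limma version 3.58.1 (eBayes with trend, R version 4.3.3) on log2(rescaled TPM + 1), with Benjamini-Hochberg adjustment over 8509 genes. The thresholds of 4-fold and 10 TPM follow those used by the study. Median SD within groups was 0.118 (Experiment 1), 0.2 (Experiment 2) and 0.149 (12 h) log2 units, and 8690 to 9119 genes per library were above 0.

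Gene positions and symbols came from RefSeq (assembly NC12), which holds 9773 of the genes, and products from the study's annotations, read for 3449 genes, so annotation lists are partial. Reads shared by overlapping genes cannot be assigned. The named genes are members of the gene lists, the 15 called in both with the largest smaller ratio in each direction, and up to 4 called members of an annotation list. Others are said to be chosen later. Members and lists were chosen with earlier results of these data known.

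Alternatives were TPM as deposited, upper-quartile scaling, an added 0.1, no filter, no TPM minimum, a ratio of 2 and robust eBayes. Others were separate fits, a fit over 18 libraries, the replicate number as a block and each library left out. The threshold on the log2 fold change put the 4-fold cut on that value in place of the ratio of means, with the same adjusted p. Leaving out overlapping or short genes, or genes called between the 4 h experiments, was chosen after seeing the data. The procedure was tested on simulated data. Python version 3.11.15, pandas version 2.3.3, NumPy version 2.4.6 and matplotlib version 3.10.9 were used.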

Additional observations from a re-analysis of the deposited data

Results flagged for a closer look

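The gene *cpc-2*, which encodes a RACK1-type WD-repeat protein associated with the ribosome, was called in opposite directions against the 4 h experiments, the single gene of 8509 tested to be so. It measured 579.6, 795 and 622 at 12 h, 101, 171 and 204 in Experiment 1 and 2738, 3708 and 4240.2 in Experiment 2, with no overlap among the groups. Its log2 fold change was 2.11 ± 0.27 (SE) against Experiment 1 (adjusted p = 1.8e-04, limma) and -2.41 ± 0.27 against Experiment 2 (adjusted p = 4.9e-05). The difference between the 4 h experiments was itself past the threshold (22.4-fold higher in Experiment 2, adjusted p = 1.7e-06). The mean at 7 mM was 2388, and 268 bases of the annotated span overlap NCU05811.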

How the results depend on the processing

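Numbers of calls depended mostly on the thresholds. Without the TPM minimum, 664, 874 and 734 genes were called against Experiment 1, against Experiment 2 and between the 4 h experiments, and with a ratio of 2 the numbers were 1255, 1646 and 1982. Genes called in both numbered 257 higher and 171 lower with a ratio of 2, and 291 were lower without the TPM minimum. Chosen after seeing the data, leaving out overlapping genes gave 43 higher, and leaving out short genes as well gave 36 higher and 34 lower. With the replicate number as a block, 87 and 57 genes were called in both, as without it. Deviations of libraries with the same number correlated by -0.12 to 0.27, and the numbers were not taken as pairs. Leaving out each library in turn gave 84 to 93 genes higher in both, 53 to 65 lower in both, 277 to 340 calls against Experiment 1, 447 to 489 against Experiment 2 and 443 to 526 between the 4 h experiments. With TPM as deposited, 80 of the 87 and 54 of the 57 genes were still called, while the median of all genes moved to -0.19 against Experiment 1 and 0.15 against Experiment 2.

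Signs turned only for genes with no detectable difference. With TPM as deposited the log2 fold change against Experiment 2 became 0.03 for *preg*, 0.08 for *mdk-1*, 0.06 for *nuc-3* and 0.12 for *pho-2*, and against Experiment 1 it became -0.17 for *eas*. With 1 library left out, values ran from -0.37 to 0.09 for *nuc-3* and from -0.30 to 0.13 for *pho-2* against Experiment 2, and from -0.32 to 0.32 for *pho-3*, -0.31 to 0.11 for *pho-5*, -0.21 to 0.27 for *eas* and -0.19 to 0.02 for *act* against Experiment 1. The cause was not tested. TPM carry no depth, so counting error could not be separated from the spread of 3 libraries.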

Other observations

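Of the genes called higher in both, 18 of 87 lie on chromosome VII, which holds 882 of the 8509 genes tested. Among them, NCU05763, NCU05764, NCU17270 and *poi-2* start between bases 3738189 and 3759615 (NC12), with other genes between them. *poi-2* measured 711, 388 and 203 at 12 h against 45.6, 18 and 9.75 in Experiment 1 and 3.70, 6.42 and 11.6 in Experiment 2. NCU05763 measured 151, 76.1 and 59.1 at 12 h and 25.2, 10.6 and 5.54 in Experiment 1, and was listed at 0 in all 3 libraries of Experiment 2. NCU17270, also listed at 0 there, measured 42.7, 21.0 and 13.4 at 12 h, and NCU05764 measured 73.7, 42.9 and 22.6. In each of the 4 genes, replicate 1 was the highest of the 12 h libraries and of the Experiment 1 libraries.

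Adjacent genes among those tested were called together in a few places. NCU09775 and NCU09773 on chromosome II measured 32.6, 107 and 47.7 and 20.9, 101 and 54.9 at 12 h, with every 4 h library at 6.50 or less. On the mitochondrial chromosome, NCU16001 and NCU16002 were called higher in both, with 12 h means of 13.2 and 15.9 against 1.62 to 2.73 at 4 h.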
